A study of Mus musculus with 17 samples.

Results

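The genes described here are 10 genes of fatty acid oxidation in mouse β cells, *Cpt1a*, *Cpt2*, *Acadm*, *Acadl*, *Acadvl*, *Hadh*, *Hadha*, *Abcd2*, *Acot12* and *Ppara*. They were chosen by name, and all 10 were found among the 54456 gene symbols of the deposited tables. The study asked how β cells respond to glucose without PCBP2, a poly(C)-binding protein that binds RNA. Islets of male mice on a C57BL/6 background were cultured for 3 days at 2.8 mM (low) or 16.7 mM (high) glucose, after recovery at an intermediate concentration, and living tdTomato-positive cells were sorted for RNA sequencing. Both genotypes carried RIP-Cre, a Cre recombinase driven by the rat insulin promoter, and a Cre-dependent tdTomato reporter at Rosa26. Control cells, named WT in the labels, had no floxed *Pcbp2* (n = 3 at low and n = 4 at high glucose), whereas Pcbp2βKO cells were homozygous for floxed *Pcbp2* (n = 5 at each concentration). The sort selected cells in which Cre had acted on the reporter, which does not show that both *Pcbp2* alleles were deleted in each cell.

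Fatty acids are oxidized after activation to acyl-CoA. Carnitine palmitoyltransferases carry the long chains into mitochondria, where acyl-CoA dehydrogenases, hydratases, hydroxyacyl-CoA dehydrogenases and thiolases shorten them in a repeating spiral, and very long chains are first shortened in peroxisomes. In β cells, glucose raises malonyl-CoA, an inhibitor of the carnitine palmitoyltransferase 1 step, and PPARα is a nuclear receptor known to activate genes of the pathway in many tissues. In the sources used here, nothing says whether the replicates were separate mice or cultures, so the p values measure only the spread between these samples, which may be technical.

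Of the 10 genes, 3 passed the test in at least 1 comparison of 2 groups. Over all 22733 genes tested, 13.9% passed for glucose in control and 23.9% in Pcbp2βKO cells. Between genotypes, 2.05% passed at low and 1.71% at high glucose. *Acot12* was lower in Pcbp2βKO than in control cells at both glucose concentrations, by 13.8-fold at low and 31.7-fold at high glucose. The difference at low glucose passed in only 1 of the 8 fits that left out 1 sample. *Abcd2* was higher at high glucose in both genotypes, and 3.23-fold higher in Pcbp2βKO than in control cells at high glucose. Its rise in control cells did not pass without replicate 2 at low glucose or in a fit of only the 2 groups compared. On transcript abundances, neither this rise nor the difference between genotypes passed. *Hadh* was 1.73-fold higher at high than at low glucose in Pcbp2βKO cells. This rise did not pass without the 3 samples that stood apart from their groups, described below. Nor did it pass when libraries were scaled by their totals, and its sign turned on transcript abundances. In the main test, on scaled counts, the carnitine palmitoyltransferases, the 3 acyl-CoA dehydrogenases, *Hadha* and *Ppara* passed in no comparison.

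The 10 genes lie on 8 mouse chromosomes (GRCm39, GENCODE annotation). *Acot12* spans chr13:91889396-91935688 on the plus strand, *Abcd2* chr15:91029881-91076310 on the minus strand and *Hadh* chr3:131027068-131065750 on the minus strand. *Ppara* and *Abcd2* share chromosome 15, and *Hadh* and *Acadm* share chromosome 3. RefSeq promoters, taken as 250 bases before to 50 bases after the gene start (build GRCm38.p6), matched 9 of the 10 genes, all but *Abcd2*. They were searched on both strands for AGGTCA, the hexamer recognized by many nuclear receptors, of which PPAR binding elements hold a pair. The hexamer occurred in the promoters of 4 of the 9 genes and in 16.3% of all 32851 promoters of the table. A direct repeat of the hexamer with 1 base between the copies was in none of the 9 and in 0.0396% of all promoters. CACGTG, an E box, was also in none of the 9 and in 7.15% of all. The whole promoter of *Acot12* is shown because this gene differed most between genotypes, and the stretch around the hexamer for the other 3 genes, so that the matches can be read. Capitals mark the hexamer, which reads TGACCT where it lies on the opposite strand. It starts at position -110 from the gene start in *Acot12*, -94 in *Cpt1a*, -249 in *Acadm* and -87 in *Acadvl*. A match is a description of the letters, not of a bound site.
*Acot12* (plus strand, chr13:91741271-91741570): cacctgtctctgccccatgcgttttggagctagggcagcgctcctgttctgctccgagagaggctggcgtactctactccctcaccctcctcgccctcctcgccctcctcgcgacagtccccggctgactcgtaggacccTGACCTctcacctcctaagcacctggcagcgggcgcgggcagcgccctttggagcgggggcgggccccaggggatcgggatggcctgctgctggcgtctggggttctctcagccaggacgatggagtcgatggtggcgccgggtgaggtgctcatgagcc
*Cpt1a* (plus strand, within chr19:3323051-3323350): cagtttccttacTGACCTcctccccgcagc
*Acadm* (minus strand, within chr3:153944594-153944893): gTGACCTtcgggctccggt
*Acadvl* (minus strand, within chr11:70015379-70015678): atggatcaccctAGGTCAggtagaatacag

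Sequencing depth ranged from 47385513 to 82419400 estimated counts per sample. *Pcbp2* was measured at 50.7 to 73.4 CPM (counts scaled to 1 common total per sample) in control cells at low glucose and 35.0 to 45.4 CPM at high glucose. In Pcbp2βKO cells it was at 15.5 to 19.2 CPM at low and 5.81 to 10.03 CPM at high glucose, so the genotypes did not overlap at either concentration. On the first principal component of all genes tested (30.0% of the variance), replicate 4 of the control cells at high glucose and replicates 4 and 5 of the Pcbp2βKO cells at high glucose stood apart from their groups. Their scores were 9.89, 21.4 and 33.3, against at least 90.9 in the other high-glucose samples. The 8 β cell markers summed to at least 66579 CPM in every sample. *Gcg*, *Sst* and *Ppy*, hormone genes of other islet cells, were also present. The 4 α cell markers summed to 638 to 2565 CPM in control and 1473 to 9195 CPM in Pcbp2βKO cells at low glucose, and to 262 to 1464 CPM and 174 to 1322 CPM at high glucose. The acinar markers summed to at most 0.245 CPM and the adipocyte markers to at most 0.469 CPM in any sample.

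Levels were compared between genes within a sample on TPM (transcript abundances that account for transcript length and have the same total in every sample). *Hadh*, a mitochondrial 3-hydroxyacyl-CoA dehydrogenase that also binds and restrains glutamate dehydrogenase in β cells, was the most abundant of the 10, at 205 TPM ± 65.6 (SD, n = 17). It was above *Acadvl*, the very long chain acyl-CoA dehydrogenase (48.0 TPM ± 16.8), in all 17 samples. *Cpt2*, the carnitine palmitoyltransferase of the inner membrane, followed at 30.4 TPM ± 11.5. *Acadl*, the long chain dehydrogenase (21.6 TPM ± 9.88), and *Hadha*, the α subunit of the trifunctional protein (18.9 TPM ± 6.36), did not keep a fixed order, as *Acadl* was the higher in 11 of 17 samples and in 1 of 4 control samples at high glucose. *Acadm*, the medium chain dehydrogenase, had 9.58 TPM ± 3.605 and *Cpt1a*, the malonyl-CoA-sensitive enzyme of the outer membrane, 6.88 TPM ± 3.10, and *Acadm* was above *Cpt1a* in all 17 samples. *Acot12*, *Abcd2* and *Ppara* were the lowest, with means of 1.37, 0.501 and 0.350 TPM. *Acot12* was above *Abcd2* in 6 of 7 control samples and in 1 of 10 Pcbp2βKO samples. TPM are shares of all transcripts, and *Ins2* alone took 19.5% to 33.5% of TPM at low and 53.2% to 58.9% at high glucose, so TPM were not used to test glucose.

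**Figure D1:**
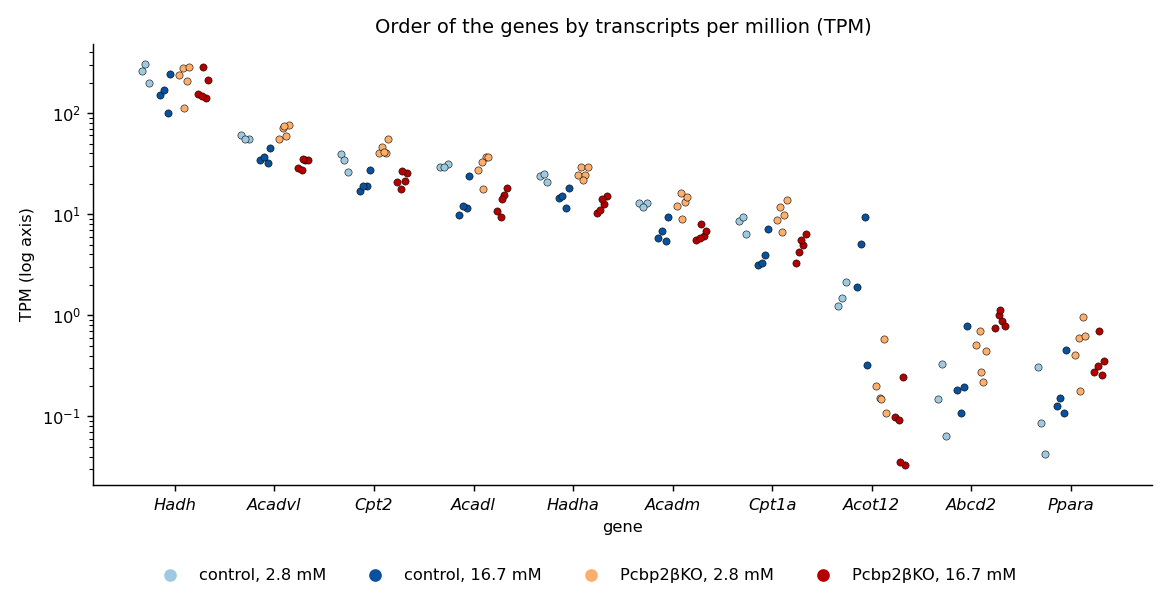
TPM (log axis) of the 10 genes in each of the 17 samples, ordered from left to right by their mean, with points coloured by genotype and glucose. *Hadh* lies above every other gene in each sample, and *Acot12*, *Abcd2* and *Ppara* have the lowest means. *Acot12* ran from 0.0331 to 9.33 TPM, and was above *Cpt1a* in 2 of the 4 control samples at high glucose.

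Differences between groups were tested on counts after TMM scaling of the libraries, with edgeR's quasi-likelihood test over 22733 genes, which all 10 genes entered. A gene was called at a Benjamini-Hochberg adjusted p below 0.05 with a fold change above 1.5, and log2 fold changes are given with their standard error (SE). All log2 fold changes are relative to most genes, whose median change was 0.04 for glucose in control cells and 0.01 in Pcbp2βKO cells. When libraries were scaled by their totals instead, these medians moved to -0.35 and -0.47, and the calls over all genes in control cells to 781 higher and 4053 lower (1627 and 1523 after TMM), in Pcbp2βKO cells to 1484 and 6364 (3060 and 2376 after TMM). On log2(TPM + 0.1), *Cpt1a*, *Cpt2*, *Acadm*, *Acadl*, *Acadvl* and *Hadha* were each called as lower at high glucose in both genotypes, by 0.64 to 1.16 in control cells, where the median of all genes was -0.55. At high glucose, the β cell markers summed to 269938 to 522161 CPM in control cells, against 117900 to 122069 CPM at low glucose.

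In control cells, high against low glucose called 1 of the 10 genes, *Abcd2*. Of all genes tested, 13.9% were called, 7.16% as higher and 6.7% as lower. In Pcbp2βKO cells, the same comparison called 2 of the 10, *Abcd2* and *Hadh*, both higher, while 23.9% of all genes were called, 13.5% as higher and 10.5% as lower. At low glucose, 1 of the 10 was called between genotypes, *Acot12*, as lower in Pcbp2βKO cells, against 2.05% of all genes, 0.255% as higher and 1.79% as lower. At high glucose, 2 of the 10 were called between genotypes, *Acot12* as lower and *Abcd2* as higher, against 1.71% of all genes, 0.29% as higher and 1.42% as lower. The median log2 fold change of the 10 genes between genotypes was 0.03 at low and 0.15 at high glucose, beside 0.03 and 0.01 over all genes. The comparisons share samples pairwise, so that a low or high control group enters more than 1 of them. The interaction of genotype and glucose, which tests whether the glucose response differed between the genotypes, called none of the 10 with edgeR or DESeq2, and none had an unadjusted p below 0.05, while it called 0.0044% of all genes.

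**Figure D2:**
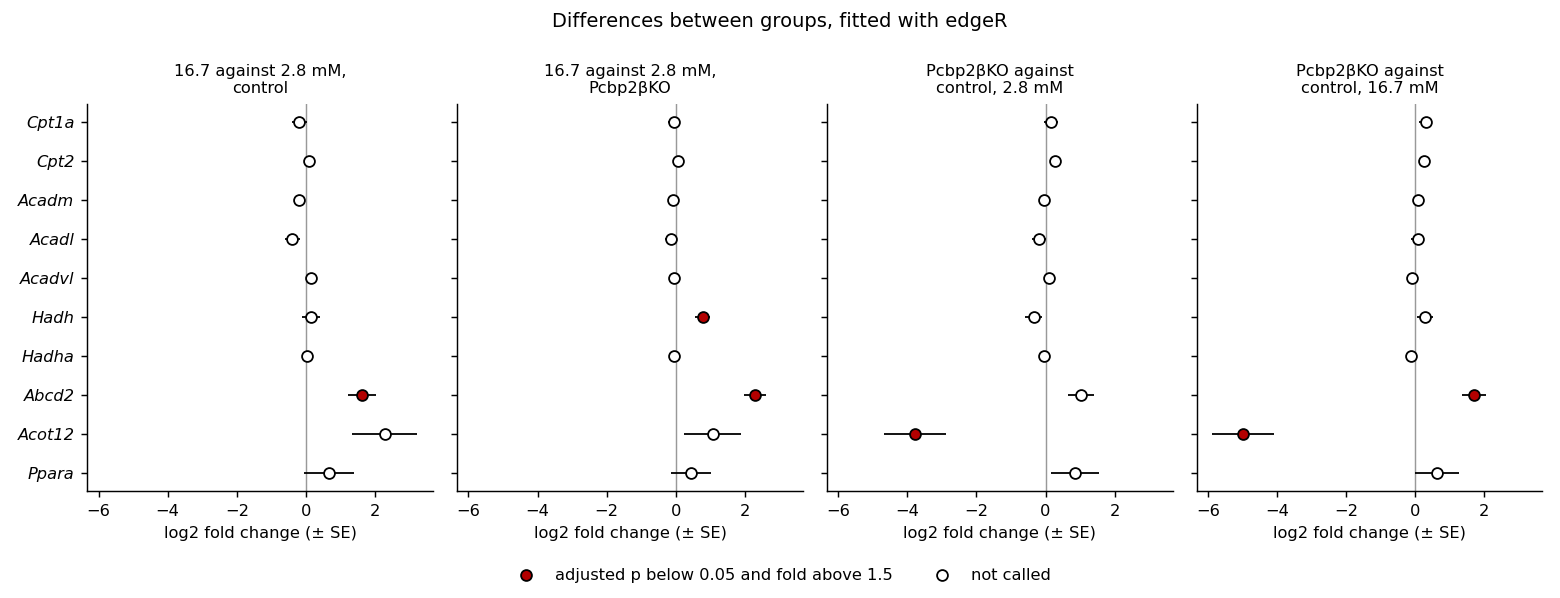
Log2 fold changes of the 10 genes with their SE in the 4 comparisons of 2 groups, with filled points for called genes. *Acot12* lies far to the left in both comparisons of genotype (-3.79 and -4.98), *Abcd2* to the right in both comparisons of glucose (1.62 and 2.29), and most other points lie near 0.

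*Cpt1a* catalyses the step at which malonyl-CoA limits the entry of long chains into mitochondria. Its levels were 37.6, 27.7 and 37.9 CPM in control cells at low glucose and 26.5, 31.6, 22.4 and 40.3 CPM at high glucose. In Pcbp2βKO cells they were 36.3, 37.2, 39.7, 49.9 and 29.3 CPM at low and 29.7, 38.1, 32.7, 44.4 and 41.1 CPM at high glucose. The 4 groups overlapped, and the difference did not pass between genotypes at high glucose (log2 fold change 0.30, SE 0.18, adjusted p = 0.577, edgeR) or between glucose concentrations in control cells (-0.19, SE 0.21, adjusted p = 0.601). One transcript, Cpt1a-201, carried 85.2% to 88.9% of its TPM on average in each group.

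*Cpt2* releases the acyl-CoA from carnitine on the matrix side. It ranged from 62.4 to 88.3 CPM in the 7 control samples and from 76.2 to 107 CPM in the 10 Pcbp2βKO samples. Pcbp2βKO cells were higher by 0.28 (SE 0.14) on the log2 scale at low glucose and by 0.24 (SE 0.13) at high glucose, with edgeR adjusted p values of 0.434 and 0.499. With 3 to 5 samples a group, these SE do not tell differences of this size from none.

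The acyl-CoA dehydrogenases take the first step of the spiral, each for a range of chain lengths. *Acadm* stayed between 16.5 and 24.7 CPM in all 17 samples. *Acadvl* was between 106 and 163 CPM, with both ends of this range at low glucose (replicate 3 of the control and replicate 5 of the Pcbp2βKO cells). Neither was called in any of the 4 comparisons.

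*Acadl* was at 55.6, 59.7 and 52.0 CPM in control cells at low glucose and at 34.5, 39.1, 37.4 and 59.0 CPM at high glucose. Of the 4 samples at high glucose, 3 lay below every sample at low glucose and replicate 4 lay within their range. The difference did not pass with all samples (log2 fold change -0.39, SE 0.21, adjusted p = 0.220, edgeR). Without the 3 samples that stood apart on the first component it did (-0.61, adjusted p = 0.0255, edgeR). These samples were chosen from the same data, by a component on which samples at low and high glucose lie apart. Leaving them out also raised the calls over all genes in control cells from 3150 to 4899, so this pass is not independent support. In Pcbp2βKO cells the groups overlapped, with 34.4 to 60.5 CPM at low and 32.2 to 54.5 CPM at high glucose.

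*Hadha* encodes the subunit of the trifunctional protein that hydrates and dehydrogenates long chains. It was the steadiest of the 10, at 58.3 to 78.5 CPM in all 17 samples, with a coefficient of variation of 7.70%. Of the 8481 genes with a mean of at least 10 CPM, 0.424% varied less, and their median coefficient was 23.5%. Means were 67.9 CPM ± 5.28 (SD, n = 3) and 69.8 CPM ± 7.55 (n = 4) in control cells and 65.4 CPM ± 2.02 and 63.7 CPM ± 4.48 (n = 5 each) in Pcbp2βKO cells, at low and high glucose respectively. Between 57.8% and 65.0% of its TPM in each group were assigned to Hadha-201, a transcript annotated as processed and not as coding, and 25.04% to 28.0% to the coding Hadha-205. The division between transcripts that share exons is an estimate of the pseudoaligner.

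*Acadvl* and *Acadm* also varied little on TMM-scaled CPM, with coefficients of 12.03% and 12.2%, and 6.96% and 7.40% of the 8481 genes varied less. *Cpt2* had 14.4%, *Cpt1a* 19.8% and *Acadl* 19.9%, all under the median of these genes. *Hadh* was above it at 31.9%. *Abcd2*, *Acot12* and *Ppara*, whose means were under 10 CPM, had coefficients of 87.7%, 201% and 65.9% and were not ranked.

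**Figure D3:**
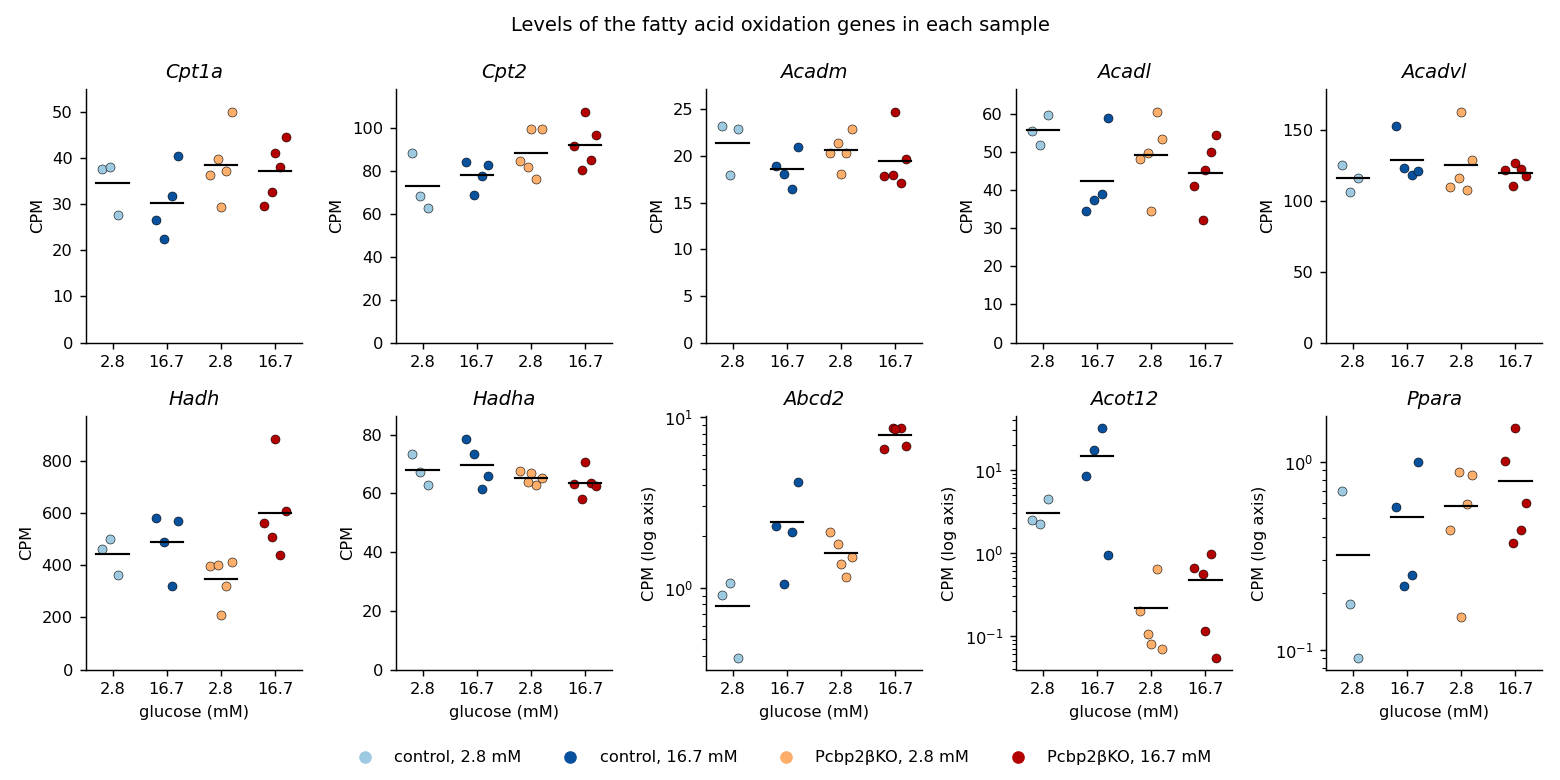
CPM of each gene in each sample (points) with the mean of the group (bar), for control and Pcbp2βKO cells at 2.8 and 16.7 mM glucose; the axes of *Abcd2*, *Acot12* and *Ppara* are logarithmic. *Hadha* keeps nearly 1 level over the 17 samples on this TMM-scaled measure, though not on TPM. *Acot12* separates the genotypes except for replicate 4 of the control cells at high glucose, at 0.939 CPM.

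*Hadh* was at 462, 361 and 501 CPM in control cells at low glucose and at 581, 320, 487 and 570 CPM at high glucose, and these groups overlapped. In Pcbp2βKO cells it was at 396, 322, 399, 411 and 208 CPM at low glucose and at 559, 439, 507, 608 and 882 CPM at high glucose, so that every sample at high glucose lay above every sample at low glucose. The rise in Pcbp2βKO cells passed (log2 fold change 0.79, SE 0.22, adjusted p = 0.00970, edgeR). It was smaller and did not pass without the 3 samples that stood apart (0.49, adjusted p = 0.103), of which replicate 5 held the highest value. Scaled by library totals it was 0.32 (adjusted p = 0.309), and on TPM the sign turned (-0.24), with 113 to 288 TPM at low and 141 to 288 TPM at high glucose. The response did not pass as different between genotypes (interaction 0.64, SE 0.34, unadjusted p = 0.0730 and adjusted p over 22733 genes 1.00). A single transcript, Hadh-201, held on average 99.5% to 99.6% of its TPM in each group.

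In the same comparison of glucose in Pcbp2βKO cells, 2 of 4 α cell markers, 1 of 2 δ cell markers, the PP cell marker and 3 of 3 macrophage markers fell at high glucose, and 7 of 8 β cell markers rose. The macrophage markers summed to 5.33 to 18.7 CPM at low and 1.14 to 2.98 CPM at high glucose. In control cells, 5 of 8 β cell markers rose and no marker of these other cell types was called. There the PP cell marker was at 797 to 835 CPM at low and 224 to 631 CPM at high glucose. The macrophage markers summed to 5.84 to 11.5 CPM and 1.78 to 5.71 CPM. The part of these changes in the values of *Hadh*, *Abcd2* and *Acot12*, and of the related genes described below, was not tested. In bulk samples, fewer cells of a type and less RNA per cell cannot be told apart.

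*Abcd2* encodes a transporter that brings very long chain acyl-CoA into peroxisomes. It was at 0.903, 0.387 and 1.06 CPM in control cells at low glucose and at 2.29, 2.14, 1.06 and 4.18 CPM at high glucose. Replicate 3 at high glucose was level with the highest sample at low glucose, and replicate 4 had the highest value. The rise in control cells passed (log2 fold change 1.62, SE 0.40, 3.08-fold, adjusted p = 0.0107, edgeR), but not without replicate 2 at low glucose (1.30, adjusted p = 0.0681) or in a fit of only the 2 groups compared (1.63, adjusted p = 0.0648).

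In Pcbp2βKO cells, *Abcd2* was at 2.11, 1.16, 1.80, 1.51 and 1.39 CPM at low glucose and at 6.50, 8.62, 8.68, 6.78 and 8.51 CPM at high glucose. All 5 samples at high glucose lay above every other sample of the study. The glucose response was 2.29 on the log2 scale (SE 0.32, 4.90-fold, adjusted p = 5.8e-05, edgeR) and was called without any 1 of the 10 samples (adjusted p at most 0.000274). At high glucose, Pcbp2βKO cells were higher than control cells by 1.69 (SE 0.34, 3.23-fold, adjusted p = 0.0116), and this call also stood when any 1 of the 9 samples was left out (1.44 to 2.08, adjusted p at most 0.0486). On TPM it was lost, at 1.51 (adjusted p = 0.0771, limma) on log2(TPM + 0.1) and 0.56 (adjusted p = 0.0533) on log2(TPM + 1).

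At low glucose *Abcd2* was again higher in every Pcbp2βKO sample than in any control sample, but the difference did not pass (log2 fold change 1.02, SE 0.38, adjusted p = 0.223, edgeR). Whether the glucose response differed between genotypes did not pass either (interaction 0.67, SE 0.49, unadjusted p = 0.189). These levels rested on 30 to 120 estimated counts in 6 of the 7 control samples and 285 in replicate 4 at high glucose, and on 87 to 662 in Pcbp2βKO samples. The coding Abcd2-201 carried 73.5% to 90.6% of the TPM on average in each group.

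*Acot12* encodes a cytosolic thioesterase that splits acetyl-CoA into acetate and free CoA. It was at 2.49, 4.45 and 2.22 CPM in control cells at low glucose and at 8.48, 32.2, 17.5 and 0.939 CPM at high glucose. In control cells, 3 of the 4 samples at high glucose lay above all samples at low glucose and replicate 4, one of the samples that stood apart, lay below them. The rise did not pass with all samples (log2 fold change 2.27, SE 0.95, adjusted p = 0.115, edgeR). It passed without replicate 4 at high glucose (2.68, adjusted p = 0.0264, edgeR) and without the 3 samples that stood apart (2.65, adjusted p = 0.00573). The samples left out were chosen from the same data by their low scores on the first component, so these passes are not independent support. The rise also passed in a fit of all samples that blocks on the replicate number (2.47, adjusted p = 0.000402). There both genotypes share the numbers, and the labels do not say what a number marks.

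In Pcbp2βKO cells, *Acot12* was at 0.201, 0.634, 0.106, 0.0694 and 0.0799 CPM at low glucose and at 0.650, 0.979, 0.554, 0.0536 and 0.116 CPM at high glucose. These are 4 to 54 estimated counts per sample at low and 4 to 61 at high glucose, against 203 to 345 and 64 to 1807 in control cells. At low glucose the genotypes did not overlap, and at high glucose only replicate 4 of the control cells lay within the Pcbp2βKO range.

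The difference in *Acot12* between genotypes at high glucose was -4.98 on the log2 scale (SE 0.89, 31.7-fold lower in Pcbp2βKO cells, adjusted p = 0.00411, edgeR). It was called whichever 1 of the 9 samples was left out (-5.45 to -4.26, adjusted p at most 0.0184), and without the 3 samples that stood apart (-4.73, adjusted p = 0.00174). At low glucose it was -3.79 (SE 0.90, 13.8-fold lower, adjusted p = 0.0310). This call was lost when any single sample other than replicate 2 of the Pcbp2βKO cells was left out, with log2 fold changes of -3.97 to -3.41 and adjusted p values of 0.0618 to 0.110.

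Glucose moved *Acot12* by 1.08 on the log2 scale in Pcbp2βKO cells (SE 0.83, adjusted p = 0.368, edgeR), which did not pass. The estimate was 1.68 (adjusted p = 0.0395, edgeR) without replicates 4 and 5 at high glucose and replicate 4 of the control cells, and on TPM its sign turned (-0.70). The samples left out were chosen from the same data by their low scores on the first component. The interaction was -1.20 (SE 1.23, unadjusted p = 0.341). In control cells, the coding Acot12-201 carried 51.0% ± 7.36 (SD, n = 3) of the TPM at low and 57.6% ± 4.45 (n = 4) at high glucose. The rest was assigned to 2 short non-coding transcripts, Acot12-202 and Acot12-203. In Pcbp2βKO cells the shares, 13.3% ± 11.6 and 66.3% ± 32.8 (n = 5 each), rest on a few counts each.

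**Figure D4:**
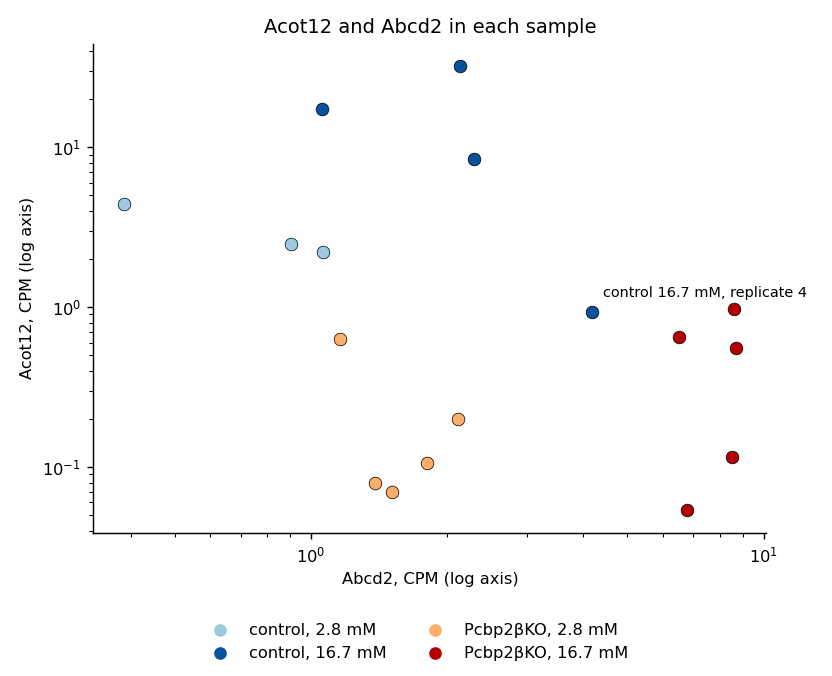
CPM of *Acot12* against CPM of *Abcd2* in the 17 samples, both on log axes. Pcbp2βKO samples lie below 1 CPM of *Acot12*, those at high glucose at 6.50 to 8.68 CPM of *Abcd2*, and replicate 4 of the control cells at high glucose (0.939 and 4.18 CPM) lies within the Pcbp2βKO range on the *Acot12* axis and between the other control samples and the Pcbp2βKO samples at high glucose on the *Abcd2* axis.

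*Ppara* encodes the nuclear receptor PPARα. It was low in all samples, from 0.0902 to 1.52 CPM, or 7 to 118 estimated counts. Means were 0.320 CPM ± 0.327 (SD, n = 3) and 0.509 CPM ± 0.363 (n = 4) in control cells and 0.583 CPM ± 0.304 and 0.786 CPM ± 0.478 (n = 5 each) in Pcbp2βKO cells, at low and high glucose. No comparison passed, and at high glucose the difference between genotypes was 0.62 with an SE of 0.63, so the spread between samples did not allow a difference of this size to be told from none. The TPM of *Ppara* were spread over 6 transcripts, with the coding Ppara-201 at 26.1% to 89.4% on average in each group.

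The genes whose log2 CPM followed *Cpt1a* most closely over the 17 samples were *Faah* (Pearson's r = 0.876) and *Rab37* (0.868). The r after subtraction of the group means was 0.884 and 0.838. For *Abcd2* they were *Gm4791* (0.968), *Pcolce2* (0.962) and *Ky* (0.957), with r within groups of 0.772, 0.760 and 0.674. *Palld* (0.932) and *Gpx3* (0.931) were among the 3 most alike to *Acot12*, with 0.753 and 0.744 within groups. *Mexis* (0.806), *Arhgap24* (0.789) and *Casr* (0.788) were the most alike to *Ppara*. These are among the highest of about 13070 correlations for each gene, over samples that share groups, and are given as a description.

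Beyond the 10 genes, 84 other genes of fatty acid handling were listed by role, of which 79 were tested. Glucose called 19 of these in control cells, 6 as higher and 13 as lower, and 31 in Pcbp2βKO cells, 13 as higher and 18 as lower, against 13.9% and 23.9% of all genes. The 2 sets shared 18 genes, 94.7% of the first and 58.1% of the second, and these moved the same way in both. Between genotypes, 1 of the 79 was called at high and 3 at low glucose, against 1.71% and 2.05% of all genes, so these counts are near the background. The interaction called none with edgeR or DESeq2, with 4 at an unadjusted p below 0.05. The related genes had a median log2 fold change for glucose of -0.16 in control and -0.09 in Pcbp2βKO cells, against 0.04 and 0.01 over all genes. The replicate block raised the count in control cells to 29, and without replicate 2 of the control cells at low glucose it was 8.

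Of the 16 other genes listed here under the mitochondrial spiral, not all of which act on straight fatty acid chains, 6 were called for glucose in each genotype. In each, 5 were lower and 1 was higher, where 6.7% and 10.5% of all genes were called as lower in control and Pcbp2βKO cells. *Acaa2*, the thiolase of the last step, fell by 1.25 on the log2 scale (SE 0.19, adjusted p = 0.000691, edgeR) in control cells and by 0.82 (SE 0.16, adjusted p = 0.000784) in Pcbp2βKO cells. *Echs1*, the short chain hydratase, fell by 0.98 (SE 0.22) and 0.85 (SE 0.18), and *Eci1*, an isomerase for unsaturated chains, by 0.78 (SE 0.16) and 0.76 (SE 0.13), in control and Pcbp2βKO cells respectively. *Acad10* fell in both, *Decr1* in control cells (called in 2 of 7 fits that left out 1 sample) and *Acadsb*, a dehydrogenase of branched short chains, in Pcbp2βKO cells (by 0.78, SE 0.13). *Acad11*, which acts on longer chains, was the exception and rose by 0.80 (SE 0.19) and 0.84 (SE 0.16) on TMM-scaled counts, though in Pcbp2βKO cells its sign turned on TPM. In the same comparisons, *Acadm*, *Acadl*, *Acadvl*, *Hadh* and *Hadha* were not called as lower after TMM scaling.

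Of the 17 peroxisomal genes, 4 were called for glucose in control cells and 7 in Pcbp2βKO cells, beside 13.9% and 23.9% of all genes. *Pecr*, a trans-2-enoyl-CoA reductase, rose by 0.79 (SE 0.26) in control and 0.99 (SE 0.21) in Pcbp2βKO cells. In control cells, 6 of the 7 fits that left out 1 sample did not call *Pecr* (adjusted p 0.0696 to 0.145, edgeR). *Acaa1a*, a peroxisomal thiolase, fell by 0.75 (SE 0.14) and 0.71 (SE 0.12). *Amacr*, a racemase of branched chains, fell by 0.68 (SE 0.16) and 0.64 (SE 0.13). In Pcbp2βKO cells *Abcd3*, a peroxisomal transporter, rose by 0.73 (SE 0.12) and *Scp2*, which holds a sterol carrier domain and a thiolase, by 0.80 (SE 0.11), and *Acox3* also rose. In control cells edgeR called none of these, and *Scp2* was at 168 to 170 CPM at low and 204 to 274 CPM at high glucose. On TPM the signs of *Abcd3*, *Scp2*, *Pecr* and *Acox3* turned in Pcbp2βKO cells, and that of *Pecr* also in control cells.

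Among the 14 genes of activation and the carnitine shuttle, glucose called 3 in control and 5 in Pcbp2βKO cells, beside 13.9% and 23.9% of all genes. *Acsl3*, an acyl-CoA synthetase, fell at high glucose by 0.74 (SE 0.22) in control and 1.32 (SE 0.18) in Pcbp2βKO cells. *Slc27a4*, a fatty acid transport protein, rose by 0.97 (SE 0.21) and 0.83 (SE 0.17), with the sign turned on TPM in Pcbp2βKO cells. The call of *Acsl3* in control cells stood in 2 of 7 fits that left out 1 sample (adjusted p up to 0.158, edgeR), and that of *Slc27a4* in all 7. Between genotypes, 1 of the 79 related genes was called at high and 3 at low glucose, near the 1.71% and 2.05% of all genes. These calls include synthetases that were lower in Pcbp2βKO cells. *Acsl3* went the other way at low glucose, at 45.6 to 57.1 CPM in Pcbp2βKO and 22.7 to 43.4 CPM in control cells, and was not called. *Acsl4*, a synthetase that prefers arachidonate, was lower in Pcbp2βKO cells at high glucose (log2 fold change -1.02, SE 0.25, adjusted p = 0.0414, edgeR), and 7 of the 9 fits that left out 1 sample did not call it (adjusted p 0.0646 to 0.181). *Acsl5* was lower in Pcbp2βKO cells at low glucose (-0.60, SE 0.13, adjusted p = 0.0132), as were *Acsl6* and *Acox3*. The call of *Acsl5* stood in 6 of the 8 fits that left out 1 sample.

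Of the 10 other thioesterases, edgeR called none between genotypes at either concentration, with 1 at an unadjusted p below 0.05 at low and 2 at high glucose. DESeq2 called 0 at low and 1 at high glucose, *Acot9*, which is named after its values were seen. With glucose, 3 of the 10 were called in control and 4 in Pcbp2βKO cells, beside 13.9% and 23.9% of all genes. *Acot13*, a mitochondrial thioesterase, fell by 0.81 (SE 0.22) in control and 0.59 (SE 0.18) in Pcbp2βKO cells. *Them4* fell and *Acot4* rose in both, and *Acot11* rose by 0.59 (SE 0.21) in Pcbp2βKO cells. When 1 sample was left out, *Acot13* was called in 3 of 7 fits in control and 5 of 10 in Pcbp2βKO cells, *Acot4* in 4 of 7 in control cells and *Acot11* in 5 of 10 in Pcbp2βKO cells. Among the 15 regulators, glucose called 2 in control and 4 in Pcbp2βKO cells, near the 13.9% and 23.9% of all genes. *Pparg* and *Sirt1* fell in both genotypes. In Pcbp2βKO cells *Ppargc1b* fell and *Lpin1*, a phosphatidate phosphatase and coactivator, rose by 0.71 (SE 0.19). The control calls of *Pparg* and *Sirt1* each stood in 2 of 7 fits that left out 1 sample. *Acot4*, *Acot11* and *Lpin1* turned sign on TPM in Pcbp2βKO cells.

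Of the 12 known PPAR target genes outside the pathway, 7 were tested and moved in both directions with glucose. With edgeR, glucose called 1 of the 7 in control and 5 in Pcbp2βKO cells, beside 13.9% and 23.9% of all genes. *Ucp2*, an uncoupling protein of the inner membrane, rose by 1.63 (SE 0.26, adjusted p = 0.000832, edgeR) in control and by 1.99 (SE 0.21, adjusted p = 5.58e-06) in Pcbp2βKO cells. *Plin2*, which coats lipid droplets, fell by 1.66 (SE 0.36, adjusted p = 0.00210, edgeR) in Pcbp2βKO cells. Its levels there were 41.1, 60.2, 39.9, 42.0 and 134 CPM at low and 16.5, 17.1, 11.8, 26.8 and 27.8 CPM at high glucose. The call stood in all 10 fits that left out 1 sample. *Pdk4* and *Fgf21* also fell there, as *Plin2* did, while *Vnn1* rose. In control cells edgeR called none of these, while DESeq2 called *Plin2* and *Fgf21*. *Plin2* was there at 42.5, 45.8 and 23.9 CPM at low and 16.3, 13.4, 8.23 and 25.4 CPM at high glucose. None of the 7 was called between genotypes with edgeR, with 1 at an unadjusted p below 0.05 at low glucose and 0 at high glucose, while DESeq2 called 1 at low glucose, *Angptl4*, also named after its values were seen, and 0 at high glucose.

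**Figure D5:**
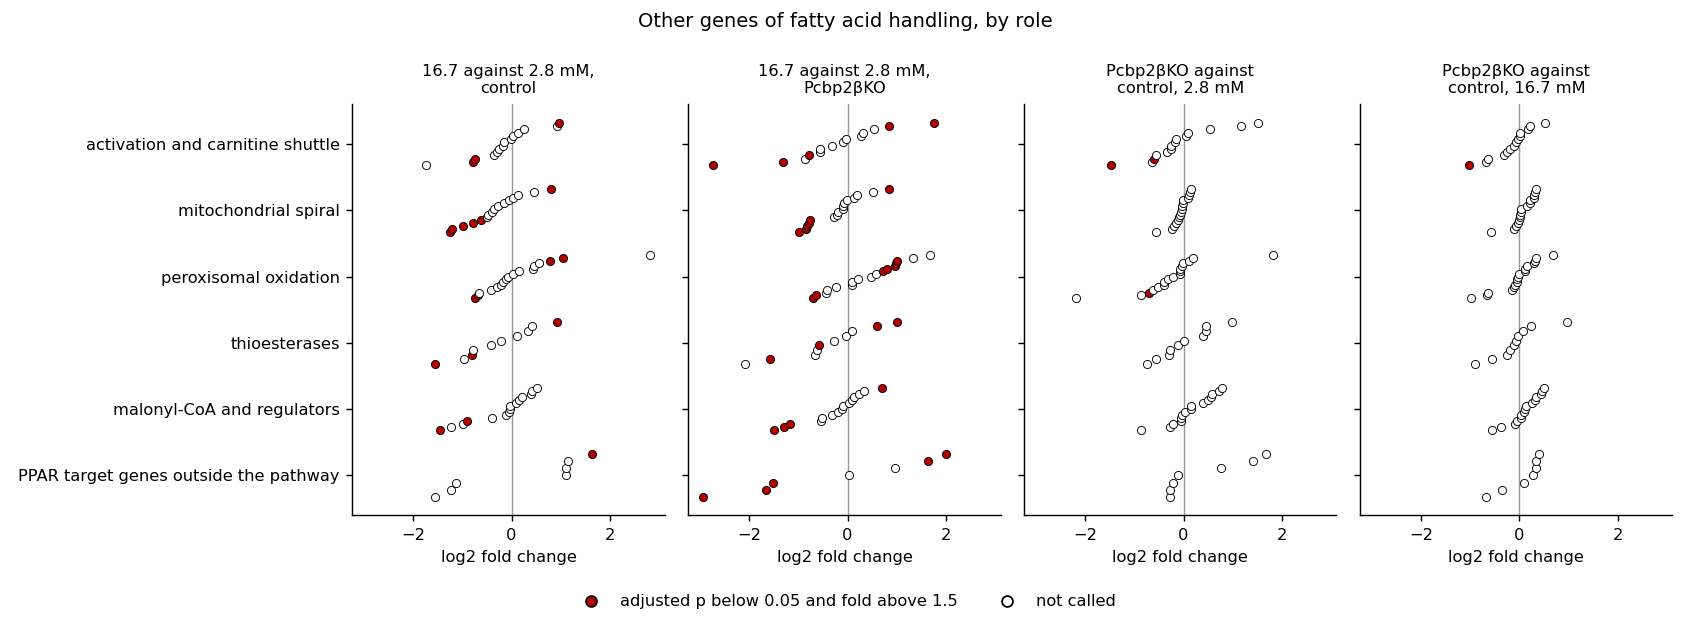
Log2 fold changes of the 79 tested related genes, by role, in the 4 comparisons of 2 groups, with filled points for called genes. Filled points number 19 and 31 in the comparisons of glucose and 3 and 1 in those of genotype at low and high glucose, where 13.9%, 23.9%, 2.05% and 1.71% of all genes were called.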

How the data were processed

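RNA of sorted β cells was sequenced in 17 samples. The authors pseudoaligned read pairs to the GRCm39 transcriptome with Kallisto, whose version is not given in the sources used here, and deposited estimated counts per transcript, not normalized between samples. The authors also deposited TPM, scaled by Kallisto to transcript length and to 1 total per sample. A batch term that the study's methods name was not used here, because its levels are not given in the sources used here.

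Groups came from the labels. Estimated counts were summed per gene symbol and rounded. With edgeR 4.0.16 (R 4.3.3), genes were filtered by the default expression filter, libraries were TMM-scaled, and 1 model of the 4 group means was fitted with the quasi-likelihood method over 22733 genes. Log2 CPM used a prior count of 2, and standard errors came from the estimate and its F statistic. Alternatives were DESeq2 1.42.0, other scaling factors, no filter, only the groups compared, a replicate block, limma 3.58.1 on log2(TPM + 0.1) and log2(TPM + 1), and leaving out samples. Scripts were tested on simulated data. Same-numbered control samples at low and high glucose deviated together over genes (r = 0.124 to 0.259 for the 3 numbers), whereas the labels do not say what a number marks, and in the other pairs of groups at least 1 number had r below 0.1. Between glucose concentrations in Pcbp2βKO cells, r was 0.0667 to 0.193 for the same number, each the highest r of that low-glucose sample.

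The 10 genes and the related lists were chosen with earlier results of these data known. The text names all 10 genes, the called related genes, with values for those among the 20 of highest mean CPM, and the 3 genes most alike to each of 4 members, apart from a few that this rule chose and that are not reported here. Promoters are from RefSeq.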

Additional observations from a re-analysis of the deposited data

Results flagged for a closer look

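Of 30 sets of values (10 genes in the 3 groups of 4 or 5 samples), 2 held a sample far from the others of its group by Dixon's test; chance alone gives about 1 in 20. *Acadvl* was at 153 CPM in replicate 1 of the control cells at high glucose, against 119 to 123 CPM in the other 3. *Acot12* was at 0.634 CPM in replicate 2 of the Pcbp2βKO cells at low glucose, against 0.0694 to 0.201 CPM in the other 4. The lower level in Pcbp2βKO cells at low glucose was called without that sample, the only 1 of the 8 fits leaving out 1 sample that called it.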

How the results depend on the processing

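A sign change was counted as a reversal unless the estimate was within 1 SE of 0 and called in neither fit. Calls of *Acot12* and *Abcd2* between genotypes at high glucose kept their direction in every fit run, and the 2 TPM fits lost that of *Abcd2*. The reversals were nearly all on TPM, where the median glucose response of all genes was -0.55 in control and -0.71 in Pcbp2βKO cells with log2(TPM + 0.1), and -0.24 and -0.33 with log2(TPM + 1). In the order of those 2 pseudocounts, glucose in control cells gave -0.70 and -0.67 for *Cpt2*, -0.64 and -0.63 for *Acadvl* (-0.24 on library totals), -0.66 and -0.62 for *Hadha* and -0.075 and -0.073 for *Pecr*. In Pcbp2βKO cells it gave -0.99 and -0.96 for *Cpt2*, -0.24 with both for *Hadh*, and -0.70 and -0.16 for *Acot12*. The related genes in Pcbp2βKO cells gave -0.20 and -0.17 for *Slc27a4*, -0.21 and -0.20 for *Acad11*, -0.30 and -0.29 for *Abcd3* and -0.046 and -0.040 for *Acox3*. They were -0.25 and -0.24 for *Scp2*, -0.078 and -0.075 for *Pecr*, -0.019 and -0.034 for *Acot4*, -0.51 and -0.47 for *Acot11* and -0.36 and -0.32 for *Lpin1*. Of the 10 genes, glucose in control cells called 2 on library totals, 2 with the replicate block, 0 with only the groups compared, 6 and 6 on TPM, 3 without the 3 samples that stood apart, and 0 to 2 when 1 sample was left out. In Pcbp2βKO cells it called 7 and 6 on TPM. Between genotypes, TPM called 1 and 1 at high and 0 and 0 at low glucose, where leaving out 1 sample gave 0 to 1. Of the related genes, glucose in control cells called 29 with the block, 48 and 41 on TPM, and 8 to 25 when 1 sample was left out; in Pcbp2βKO cells TPM called 57 and 47. Between genotypes at high glucose, the related count was 2 with DESeq2, 0 on library totals, with only the groups compared, on both TPM scales and without the 3 samples, and 0 to 2 when 1 sample was left out. At low glucose it was 5 with DESeq2, 1 on library totals, 1 and 1 on TPM, and 1 to 4 when 1 sample was left out. Over all genes, DESeq2 called 726 at high and 834 at low glucose between genotypes, against 388 and 465, and 34 for the interaction, against 1. The interaction count was 14 with no filter, 13 with the block, 3 and 0 on TPM and 2 without the 3 samples. For all genes in control cells, glucose called 4834 on library totals, 4769 with the block, 8891 and 6963 on TPM and 4899 without the 3 samples, against 3150, and in Pcbp2βKO cells 12435 and 8815 on TPM, against 5436. At high glucose, only the groups compared called 237 genes between genotypes, log2(TPM + 1) 190 and leaving out the 3 samples 589; at low glucose log2(TPM + 1) called 282, and log2(TPM + 0.1) had 92 higher and 239 lower. In Pcbp2βKO cells, same-numbered samples at low and high glucose had r of 0.0667 to 0.193, each the highest r of that low-glucose sample. Whether the numbers mark pairs is not given in the labels. For glucose in these cells, the replicate block called *Acot12* (1.14, adjusted p = 0.0286, edgeR). The cause of these moves was not tested. Depth limits *Ppara*, *Acot12* and *Abcd2*, for which a few counts change a CPM.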
